A study of Homo sapiens with 3 samples.

Results

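The genes described here are 4 enzymes of heme turnover and redox metabolism: HMOX1, CPOX, AKR1C3 and NQO1. They were listed by name, with their levels on these arrays known, and were found through 5 probes of 47323 and as 4 of 8661 named genes. All 5 probes were detected, with a detection p-value below 0.01, on each of the 3 arrays. The arrays are Illumina bead arrays of LNCaP cells, an established human prostate cancer line from a lymph node metastasis, 1 array per treatment. Over 24 h, cells were held in ethanol as the vehicle (0 nM) or in bufalin at a dose of 10 nM or of 20 nM. Bufalin, a toad venom steroid, inhibits the sodium pump (Na,K-ATPase), and the study followed how transcripts vary with its concentration.

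Heme is built in a chain of enzyme steps that begins and ends in the mitochondrion. Heme oxygenase 1, the product of HMOX1, opens the heme ring and releases biliverdin, carbon monoxide and iron. CPOX encodes coproporphyrinogen oxidase, a late enzyme of heme synthesis. NQO1 encodes a quinone reductase, and AKR1C3 an aldo-keto reductase that makes testosterone from androstenedione and also acts on prostaglandins. HMOX1, NQO1 and several AKR1C genes are textbook targets of the transcription factor NRF2, which KEAP1 holds in check and which pairs with small MAF proteins. BACH1, a repressor that heme displaces from DNA, also controls HMOX1.

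Each treatment had 1 array, so there is no replicate error and no test between treatments, and precision is limited throughout by the number of arrays. Deposited signals are linear intensities with their background, which had a fitted mean of 112.9 with vehicle, 113.6 at 10 nM and 115.8 at 20 nM. Between 14612 and 14735 probes were detected per array. Fold changes are differences of background-corrected, quantile-normalized log2 values after an offset of 16. The only spread at hand is that between probes of the same gene, whose log2 fold changes had a pooled SD of 0.31 for 10 nM and 0.44 for 20 nM relative to vehicle, and of 0.31 for the step from the lower to the higher dose. It describes probes, not cultures. In these bulk samples, fewer cells of a type and less RNA per cell cannot be told apart.

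At 20 nM, HMOX1 and AKR1C3 were at least 2-fold above vehicle, CPOX was at least 2-fold below it, and NQO1 was within 2-fold by both of its probes. Over all 8346 named genes detected in that comparison, 14.7% were at least 2-fold higher and 16.6% at least 2-fold lower. At 10 nM, HMOX1 and AKR1C3 were already at least 2-fold higher and none of the 4 genes was at least 2-fold lower, beside 6.41% and 3.24% of 8233 genes. Between the doses, HMOX1 was at least 2-fold higher and CPOX at least 2-fold lower at 20 nM than at 10 nM, beside 2.72% and 4.82% of 8195 genes. The 4 genes were chosen for such values, so these counts describe them and carry no further weight.

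HMOX1 (gene ID 3162; chromosome 22, 35381096 to 35394207, GRCh38.p14) had 1 probe, ILMN_1800512. Its signal was 177 with vehicle, 482 at 10 nM and 2520.2 at 20 nM. The vehicle signal lay little above background, with a detection p-value of 0.0013, whereas the 20 nM signal was at the 97.3th percentile of all probes on its array. The log2 fold change was 2.28 at 10 nM and 4.95 at 20 nM against vehicle, and 2.67 at 20 nM against 10 nM. As ratios of the deposited signals, with background left in, the values were 2.73 at 10 nM and 14.2 at 20 nM. Because the vehicle level is dim, the size of the increase depends on how background is treated. The order of the 3 arrays was the same in both forms.

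AKR1C3 (gene ID 8644; chromosome 10, 5048781 to 5107686) differed from HMOX1 in where the increase lay. Its probe ILMN_1713124 read 296 with vehicle, 881 at 10 nM and 997 at 20 nM. The log2 fold change was 1.99 at 10 nM and 2.18 at 20 nM, and 0.20 between the doses, which is less than the SD between probes of a gene. At 10 nM, AKR1C3 thus had 91.0% of its 20 nM log2 fold change, while HMOX1 had 46.1%. Among the 968 genes detected on all arrays and at least 2-fold higher at 20 nM, the median of this share was 58.3%. HMOX1 lay below that median, with 269 genes at a smaller share, and AKR1C3 above it, with 882 genes at a smaller share.

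CPOX (gene ID 1371; chromosome 3, 98570488 to 98593611) was lower at 20 nM, with little difference at 10 nM. Its probe ILMN_3240389 read 319 with vehicle, 291 at 10 nM and 146 at 20 nM. The log2 fold change was -0.22 at 10 nM, within the spread between probes, and -2.20 at 20 nM. Between the doses it was -1.99. The signal at 20 nM was only just detected, with a detection p-value of 0.0039, and the ratio of the deposited signals was 0.457 at 20 nM against vehicle. At 10 nM, CPOX had 9.78% of its 20 nM log2 fold change. Over the 1107 genes at least 2-fold lower at 20 nM, the median share was 48.6%, and 32 of them had a smaller share than CPOX.

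NQO1 (gene ID 1728; chromosome 16, 69709401 to 69726560) had 2 probes that went opposite ways. The brighter probe, ILMN_1720282, read 3018 with vehicle, 2537 at 10 nM and 2712 at 20 nM, with log2 fold changes of -0.31 and -0.22 at the 2 doses. The dimmer probe, ILMN_2354953, read 144 with vehicle, 159 at 10 nM and 178 at 20 nM, with log2 fold changes of 0.38 and 0.86. The dimmer probe stayed close to background, and the brighter one lay above the 97th percentile on every array. Averaged over both probes, the log2 fold change was 0.03 at 10 nM and 0.32 at 20 nM, so the sign of the NQO1 difference depends on the probe.

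**Figure D1:**
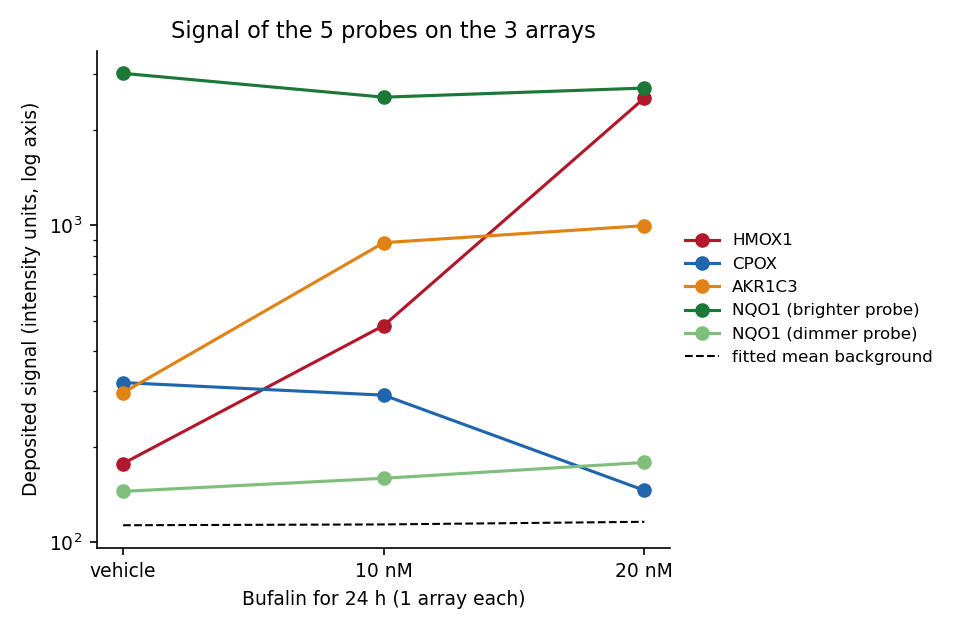
Deposited signal (intensity units, log axis) of the 5 probes on the vehicle, 10 nM and 20 nM arrays, with 1 array each and the fitted mean background as a dashed line. HMOX1 reads 177, 482 and 2520.2, AKR1C3 reaches most of its increase at 10 nM, CPOX reads 146 at 20 nM, and the brighter NQO1 probe stays between 2537 and 3018. Heights of different probes cannot be set against each other.

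The promoter windows of the 3 genes found in the RefSeq promoter table (build GRCh38.p14) are shown because AKR1C3, CPOX and NQO1 differed in direction. HMOX1 is named only. Each window runs from 250 bases before to 50 bases after an annotated start, and AKR1C3 has a pair of starts. Capitals mark matches, on either strand, to any of 5 motifs. These were TGACNNNGC, the core of the antioxidant response element that NRF2 binds with small MAF proteins, and TGANTCA. The latter is a loose form of the site of AP-1 factors, with any base allowed in the middle. The other 3 were TATAAA for the TATA box, CCAAT for the box of that name and GGGCGG for the GC box. A match on the reverse strand appears as the reverse complement of its motif.
AKR1C3, chr10:5048531-5048830, plus strand: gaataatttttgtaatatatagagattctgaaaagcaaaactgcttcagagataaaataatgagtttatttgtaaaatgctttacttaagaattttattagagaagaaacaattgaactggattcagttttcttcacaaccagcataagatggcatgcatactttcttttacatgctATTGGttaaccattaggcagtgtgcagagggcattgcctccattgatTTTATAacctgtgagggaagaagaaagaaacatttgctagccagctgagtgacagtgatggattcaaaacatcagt
AKR1C3, chr10:5094164-5094463, plus strand: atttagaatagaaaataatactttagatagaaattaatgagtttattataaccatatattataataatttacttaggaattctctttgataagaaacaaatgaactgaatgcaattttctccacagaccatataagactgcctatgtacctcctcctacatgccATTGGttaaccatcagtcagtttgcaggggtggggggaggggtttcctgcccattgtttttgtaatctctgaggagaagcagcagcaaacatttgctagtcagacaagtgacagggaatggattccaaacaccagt
CPOX, chr3:98593562-98593861, minus strand: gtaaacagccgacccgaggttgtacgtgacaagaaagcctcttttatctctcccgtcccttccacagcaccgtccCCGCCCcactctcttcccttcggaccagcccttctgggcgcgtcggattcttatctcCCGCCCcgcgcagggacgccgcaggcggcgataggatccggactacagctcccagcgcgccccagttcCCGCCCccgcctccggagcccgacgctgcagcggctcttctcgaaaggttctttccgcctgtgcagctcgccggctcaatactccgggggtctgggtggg
NQO1, chr16:69726511-69726810, minus strand: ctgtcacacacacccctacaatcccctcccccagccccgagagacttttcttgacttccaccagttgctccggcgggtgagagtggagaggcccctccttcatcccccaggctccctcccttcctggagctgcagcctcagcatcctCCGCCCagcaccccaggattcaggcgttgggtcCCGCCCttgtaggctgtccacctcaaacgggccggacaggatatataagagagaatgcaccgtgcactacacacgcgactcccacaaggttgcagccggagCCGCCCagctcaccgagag

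The first AKR1C3 window held a TATA box match 26 bases and a CCAAT match 73 bases before the start, and the second a CCAAT match 86 bases before it. Neither held a GC box. The CPOX window held 3 GC box matches, 175, 118 and 50 bases before the start. The NQO1 window held 3 as well, at 103 and 70 bases before the start and 32 bases after it. None of these 4 windows held the antioxidant response element core or the AP-1 letters. Of 35116 promoter windows of this length, 13.3% held the element core, 7.71% the AP-1 letters, 11.5% the TATA box, 34.6% the CCAAT box and 45% the GC box. Windows of different genes can overlap, no motif match overlapped another in the sequences shown, and a match or its lack describes only these letters in this window.

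Most of the named enzymes of heme synthesis, CPOX among them, were at least 2-fold lower at 20 nM. Of 8 genes in that list, 6 were named and all 6 were detected. At 20 nM, 5 of the 6 were at least 2-fold below vehicle and 0 above it, beside 16.6% and 14.7% of all named genes, with a median log2 fold change of -1.58, beside -0.10 over all named genes detected. CPOX, which was chosen for its values, is among these 5 and enters the median. The others were ALAD, UROS, PPOX and FECH. At 10 nM, 0 of 6 passed 2-fold in either direction, and the median was -0.48 beside -0.04. ALAS1, the first enzyme of the chain, is unnamed here. Genes are named only from the deposited second table, which fits a filter on detection and on a difference of at least 10% from vehicle, so an unnamed gene may have differed little.

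ALAD, which joins aminolevulinic acid into porphobilinogen, read 253 with vehicle, 207 at 10 nM and 140.5 at 20 nM through the brighter of its probes, a log2 fold change of -1.88 at 20 nM. Its other probe was detected on 1 array only and gave -0.37. UROS, the uroporphyrinogen III synthase gene, read 1557 with vehicle, 913 at 10 nM and 547 at 20 nM, a log2 fold change of -1.72 at 20 nM. At 10 nM, UROS had the lowest log2 fold change of the 6, -0.87. UROD, the decarboxylase gene, had -0.55 at 20 nM and was the 1 member within 2-fold. It was chosen by this outcome.

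PPOX, which acts directly after CPOX, had most of its difference from vehicle at 20 nM, as CPOX did. Its probe read 331 with vehicle, 307 at 10 nM and 181 at 20 nM, with log2 fold changes of -0.18 at 10 nM and -1.44 at 20 nM. PPOX had 12.3% of its 20 nM log2 fold change at 10 nM, with 38 of 1107 genes at a smaller share. FECH, which inserts iron into protoporphyrin to give heme, read 1259 with vehicle, 860.1 at 10 nM and 624 at 20 nM, a log2 fold change of -1.16 at 20 nM. For FECH and UROS, 56.2% and 50.7% of the 20 nM log2 fold change was there at 10 nM. These shares rest on single arrays and their differences were not tested.

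Of the genes of heme breakdown, transport and binding, few besides HMOX1 were past 2-fold. Of 19 listed, 14 were named and detected, with 1 at least 2-fold higher at 20 nM, HMOX1 itself, and 2 at least 2-fold lower, near or below the 14.7% and 16.6% of all named genes. Without background correction and in the unnormalized signals, 0 were lower. The median log2 fold change of the 14 was -0.23. HMOX2, the constitutive heme oxygenase gene, read 143 with vehicle, 173 at 10 nM and 147 at 20 nM, with log2 fold changes of 0.72 and 0.15. The biliverdin reductase genes, which act after heme oxygenase, lay near vehicle at 20 nM, BLVRA at -0.29 and BLVRB at 0.13.

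Among transporters, SLC46A1, a folate carrier also reported to take up heme, was at least 2.88-fold lower at 20 nM and was not detected there. Its log2 fold change at 10 nM was -1.02, and the ratio of its deposited signals at 20 nM against vehicle was 0.561. FLVCR1, linked to heme export, stood at -1.06 at 20 nM. SLC25A28, a mitochondrial iron carrier, had -0.76, and SLC48A1, which moves heme out of endosomes and lysosomes, was at least 1.38-fold lower and not detected at 20 nM.

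**Figure D2:**
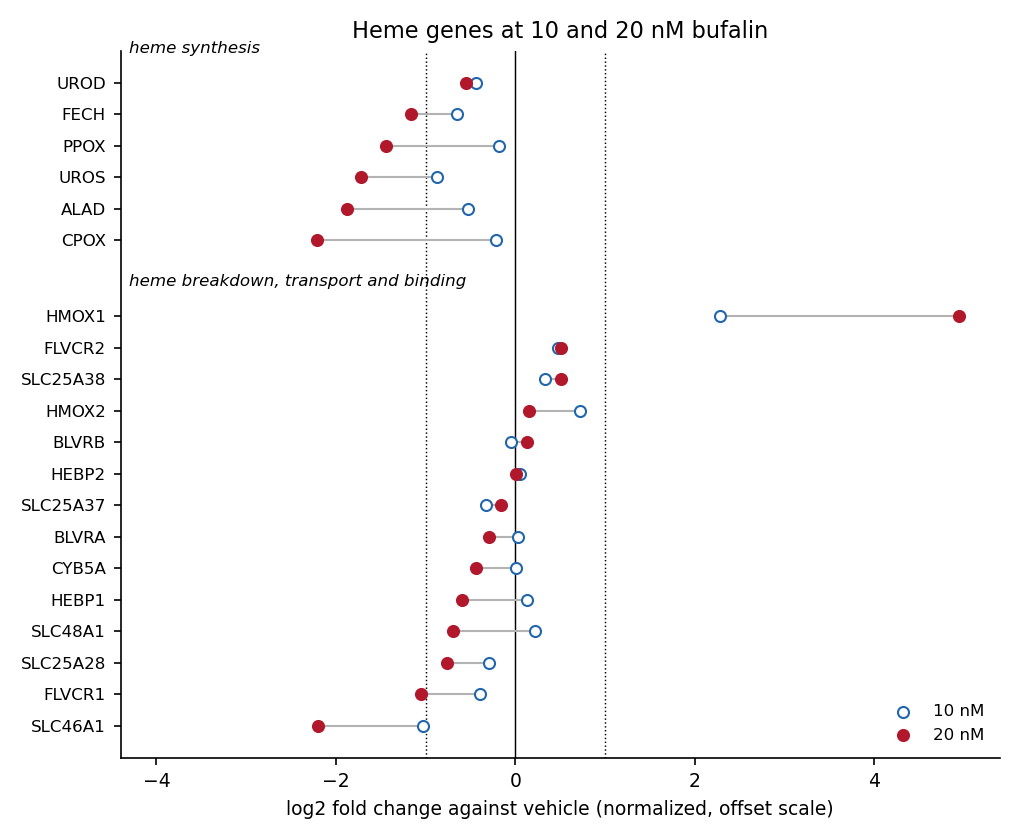
Log2 fold change against vehicle of each named and detected gene of heme synthesis (top) and of heme breakdown, transport and binding (bottom), at 10 nM (open) and 20 nM (filled), with dotted lines at 2-fold. Every heme synthesis gene lies left of 0 at 20 nM, from -0.55 for UROD to -2.20 for CPOX, and HMOX1 alone lies beyond the right dotted line in the lower list. SLC46A1 and SLC48A1 were not detected at 20 nM and are plotted at their values, not their bounds.

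The 5 named and detected iron genes, of 12 listed, lay within 2-fold of vehicle at both doses. Over all named genes, 14.7% were at least 2-fold higher and 16.6% lower at 20 nM, and 6.41% and 3.24% at 10 nM. A count from 5 genes therefore says little. Their median log2 fold change at 20 nM was 0.11, or 0.06 with means over probes, beside -0.10 over all named genes. FTL, the ferritin light chain gene, had log2 fold changes of 0.33 and 0.81 at 20 nM by its 2 probes. The ferrireductase gene STEAP3 stood at 0.39, the transferrin receptor gene TFRC at -0.34 and the ferritin receptor gene NCOA4 at 0.06. PCBP2 was at 0.11 by its brighter probe and at -0.44 by the other. The ferritin heavy chain gene FTH1 is unnamed here.

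At 20 nM, HMOX1 had a higher log2 fold change than any of the other detected enzymes linked to NRF2. Of 29 listed detoxification genes, which include AKR1C3 and NQO1 but not HMOX1, 17 were named and detected. At 20 nM, 5 were at least 2-fold higher, 2 were at least 2-fold lower and 10 lay between, beside 14.7% higher and 16.6% lower over all named genes. The median log2 fold change was 0.13, and the highest was 2.18, that of AKR1C3. Without background correction, with an offset of 50 and in the unnormalized signals, the counts were 2 higher and 0 lower. At 10 nM, 3 passed 2-fold upward and 1 downward, beside 6.41% and 3.24% over all named genes, and the median was 0.20. HMOX1 (2.28) and AKR1C3 (1.99) differed at 10 nM by less than the SD between probes, 0.31. Without background correction HMOX1 was at 1.44 and AKR1C3 at 1.57. No test of the gap between HMOX1 and these genes can be made with 1 array per treatment.

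Besides AKR1C3, the higher genes at 20 nM were UGDH, which makes UDP-glucuronate, the glutathione transferase gene GSTM3, the transporter gene ABCC5 and the epoxide hydrolase gene EPHX1. UGDH read 1119 with vehicle, 1889 at 10 nM and 2507 at 20 nM, a log2 fold change of 1.21 at 20 nM. GSTM3 was at least 2.18-fold higher, with its vehicle signal below detection, and it belongs to a family of close relatives. The ratio of its deposited signals was 1.34 at 20 nM against vehicle. EPHX1 read 547 with vehicle, 1344 at 10 nM and 1031 at 20 nM, so its highest signal was at 10 nM, with log2 fold changes of 1.44 and 1.02. The lower genes were the carbonyl reductase genes CBR1 and CBR3, at -1.35 and -1.26. CBR3 had 98.1% of its 20 nM value at 10 nM and CBR1 53.3%. ABCC5 and EPHX1 were named here after their values were seen.

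The close relatives of AKR1C3 had smaller increases. AKR1C2 read 1315 with vehicle, 1741 at 10 nM and 2314 at 20 nM, with log2 fold changes of 0.40 and 0.82. The AKR1C4 probe, named after its values were seen, gave 0.44 and 0.87. AKR1C1 is unnamed here. These genes lie together on chromosome 10 and are similar in sequence, so a probe may bind transcripts of more than 1 of them. Probe sequences were not at hand, and which gene gave each signal is uncertain. The AKR1C3 probe differed from the other 2 in its course, with nearly all of its increase at 10 nM.

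Glutathione genes past 2-fold lay on both sides of vehicle. Of 16 listed, 13 were named and detected, and at 20 nM 2 were at least 2-fold higher, 3 were at least 2-fold lower and 8 lay between, beside 14.7% and 16.6% over all named genes. With the genes detected on 1 array of the pair taken at their bounds, 1 was higher and 2 were lower. The median log2 fold change was -0.31. SLC3A2, the heavy chain of the cystine importer, read 768 with vehicle, 2180.5 at 10 nM and 2152 at 20 nM, a log2 fold change of 1.59 at 20 nM. Its dimmer probe read 220 with vehicle, 435 at 10 nM and 597 at 20 nM, with 2.07 at 20 nM, so its course depends on the probe. SLC7A11, the light chain, was named after its values were seen. It had log2 fold changes of -0.65 at 10 nM and -0.31 at 20 nM. CHAC1, which degrades glutathione, was below detection with vehicle and at least 1.31-fold higher at 20 nM. The glutaredoxin genes GLRX and GLRX2 were at -1.41 and -1.45, and GPX2, a glutathione peroxidase gene, was at least 1.30-fold lower and not detected at 20 nM. GCLM and GCLC encode the subunits of glutamate-cysteine ligase, which starts glutathione synthesis. The brighter GCLM probe read 789.6 with vehicle, 862.5 at 10 nM and 1527 at 20 nM, just under 2-fold above vehicle. The dimmer GCLM probe was just past 2-fold, with a log2 fold change of 1.02 at 20 nM. GCLC was within 2-fold, with a log2 fold change of -0.47. Both genes were named after their values were seen.

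In the thioredoxin list, 12 of 15 genes were named and detected, with 3 at least 2-fold higher at 20 nM and 0 lower, beside 14.7% and 16.6% over all named genes, and a median log2 fold change of 0.17. The 3 were TXNIP, which binds and inhibits thioredoxin (2.43), SESN1 (1.95) and SESN2, at least 4.75-fold higher from a vehicle signal below detection. As a ratio of the deposited signals, SESN2 was at 2.20. Both sestrins are known as p53 targets. TXNRD1, the thioredoxin reductase gene and an NRF2 target, stood at 0.42 and TXN2 at 0.37. SRXN1, named after its values were seen, stood at -0.16. SOD2, the mitochondrial superoxide dismutase gene, stood at 0.96, CAT at -0.31 and SOD1 at 0.05.

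Of 10 genes of NADPH supply, 8 were named and detected, and 1 was at least 2-fold lower and 0 higher at 20 nM, near the 16.6% lower over all named genes. It was IDH1, the cytosolic isocitrate dehydrogenase gene, which read 3830.2 with vehicle, 2236 at 10 nM and 1087 at 20 nM. Its 2 probes gave log2 fold changes of -2.01 and -1.93. PGD stood at -0.83, NADK at 0.57, IDH2 at -0.52 and PGLS at -0.36.

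Of the regulators that act on NRF2 or HMOX1, 8 of 12 were at least 2-fold higher at 20 nM, beside 14.7% of all named genes. Of 20 listed, 12 were named and detected, and at 20 nM 0 were at least 2-fold lower, and their median log2 fold change was 1.5, beside -0.10 over all named genes. At 10 nM, 5 passed 2-fold upward and 0 downward, beside 6.41% and 3.24% over all named genes, and the median was 0.82. NFE2L2, the NRF2 gene, read 526 with vehicle, 797 at 10 nM and 1047 at 20 nM, with a log2 fold change of 1.13 at 20 nM. KEAP1, its inhibitor, had -0.14 and -0.51 by its 2 probes. BACH1 and MAFK are unnamed here, and unnamed genes may have differed little. The list was chosen with earlier results of these data known, and FOS, ATF3, JUN and JUNB are among the 8.

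The small MAF genes MAFG and MAFF were both higher at 20 nM. MAFG read 163 with vehicle, 281 at 10 nM and 386 at 20 nM, with a log2 fold change of 2.21. MAFF read 204 with vehicle, 230.1 at 10 nM and 403 at 20 nM, with 0.32 at 10 nM and 1.59 at 20 nM. SQSTM1, the p62 gene, whose product binds KEAP1, read 8275 with vehicle, 16322 at 10 nM and 23104 at 20 nM, with a log2 fold change of 1.41. Its 20 nM signal was near the highest on that array, 25114, where differences can be hidden. Of the AP-1 and ATF factors, FOS was at least 14.0-fold higher at 20 nM, and ATF3 (4.06), JUNB (2.53) and JUN (2.11) were higher as well. The ratio of the deposited FOS signals, with background left in, was 5.68 at 20 nM against vehicle.

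**Figure D3:**
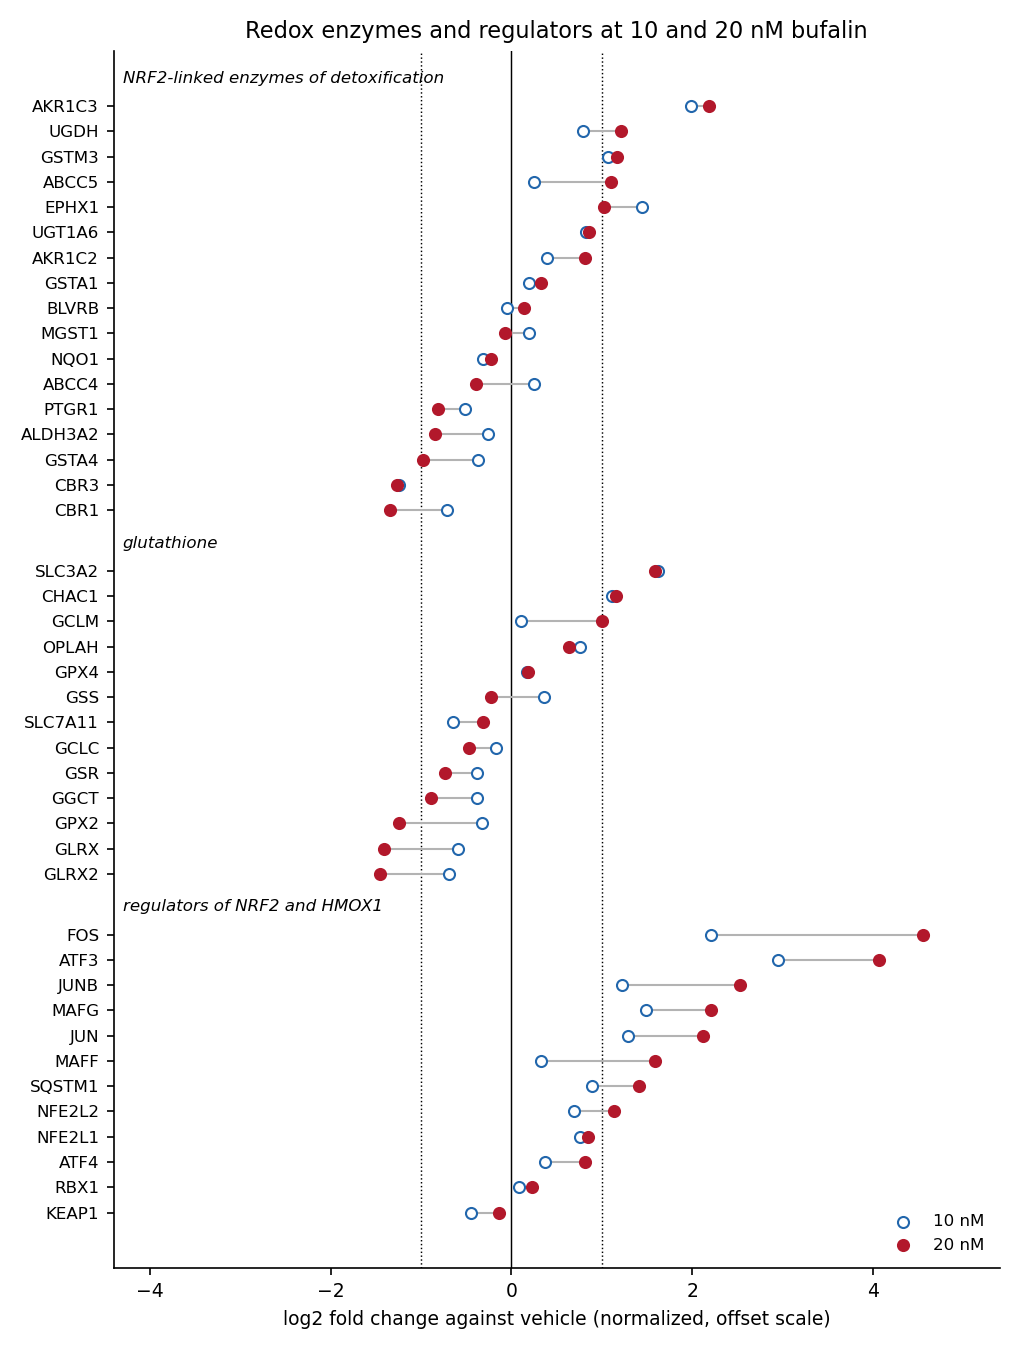
Log2 fold change against vehicle of NRF2-linked detoxification genes, glutathione genes and regulators of NRF2 and HMOX1, at 10 nM (open) and 20 nM (filled), with dotted lines at 2-fold. The first 2 lists spread to both sides of 0, from AKR1C3 at 2.18 to GLRX2 at -1.45, and 8 of the 12 regulators lie beyond the right dotted line at 20 nM. GSTM3, CHAC1, GPX2 and FOS were each detected on only some arrays and are plotted at their values.

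Set against all 7171 named genes detected on all 3 arrays, HMOX1 had the 2nd highest log2 fold change at 20 nM against vehicle and the 2nd highest at 20 nM against 10 nM, and it was 35th at 10 nM. CPOX was the 67th lowest at 20 nM and the 7th lowest between the doses. AKR1C3 was 57th highest at 10 nM and 132nd at 20 nM. Likeness of pattern was measured as the distance between pairs of log2 fold changes at the 2 doses against vehicle, over these 3 arrays. Both values of a pair share the vehicle array.

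No gene lay within a distance of 0.5 of HMOX1. The nearest were PPP1R15A, which helps restart translation after stress (0.91), IER5 (1.07), ATF3 (1.11), the syndecan gene SDC4 (1.22) and GADD45A (1.24), and each had a lower 20 nM value than HMOX1. Within the same distance there were 25 genes for CPOX, 53 for AKR1C3 and 1834 for NQO1. The nearest to CPOX were EPM2AIP1, the endonuclease gene APEX2 and AIF1L, at 0.22, 0.33 and 0.36. The nearest to AKR1C3 were MMD, the sphingosine phosphate receptor gene S1PR3 and the sterol exporter gene ABCG1, at 0.09, 0.13 and 0.14. For NQO1 they were NUCKS1, AIRIM and LYSET, each within 0.02, in a region of the plot where many genes lie.

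**Figure D4:**
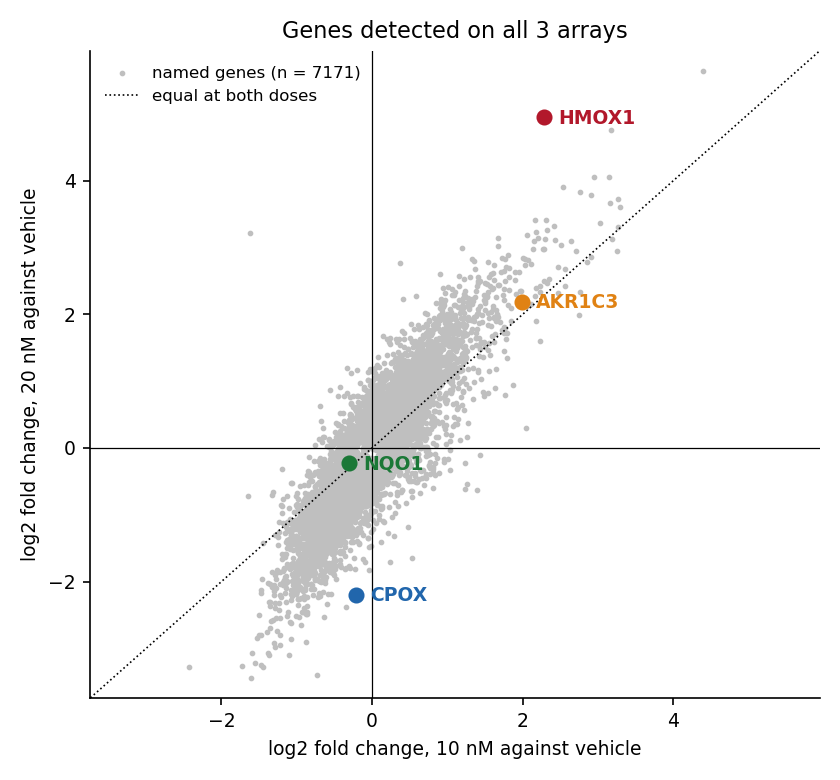
Each grey point is 1 of 7171 named genes detected on all 3 arrays, with its log2 fold change at 10 nM (x axis) and at 20 nM (y axis) against vehicle, which share the vehicle array. HMOX1 (2.28 and 4.95) stands above the line of equal values with no gene within a distance of 0.5, AKR1C3 (1.99 and 2.18) lies near the line, NQO1 lies near the centre and CPOX (-0.22 and -2.20) lies far below the line.

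Markers of cell types were examined because macrophages also express HMOX1, although the arrays are of a cell line, LNCaP. Luminal prostate markers had 10 of 13 genes named, with 10 detected with vehicle, 10 at 10 nM and 9 at 20 nM. KLK2 was not detected at 20 nM, and ACP3 is unnamed here. Their summed deposited signal was 11180.0 with vehicle, 12198 at 10 nM and 12380.2 at 20 nM. Without the membrane protease gene TMPRSS2, left out after its values were seen, the sum was 9688 with vehicle, 8531 at 10 nM and 6580.1 at 20 nM. Of the 10, TMPRSS2 and FOLH1 passed 2-fold upward at 20 nM and KLK2, SPDEF, STEAP1 and STEAP2 downward, beside 14.7% and 16.6% of all named genes. The median log2 fold change of the 10 was -0.71, beside -0.10 over all named genes. Leukocyte and macrophage markers had 3 of 8 named: CD14, CD68 and HLA-DRA. Their summed signal was 697 with vehicle, 965 at 10 nM and 1269 at 20 nM, and CD14 was detected at 20 nM only. PTPRC and CD163 are unnamed here. Stromal markers had 3 of 9 named, and their sum was 1831 with vehicle, 2734 at 10 nM and 2474 at 20 nM. The sums hold background and describe transcripts, not numbers of cells of another type. The part of these markers in the HMOX1 values was not tested.

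**Figure D5:**
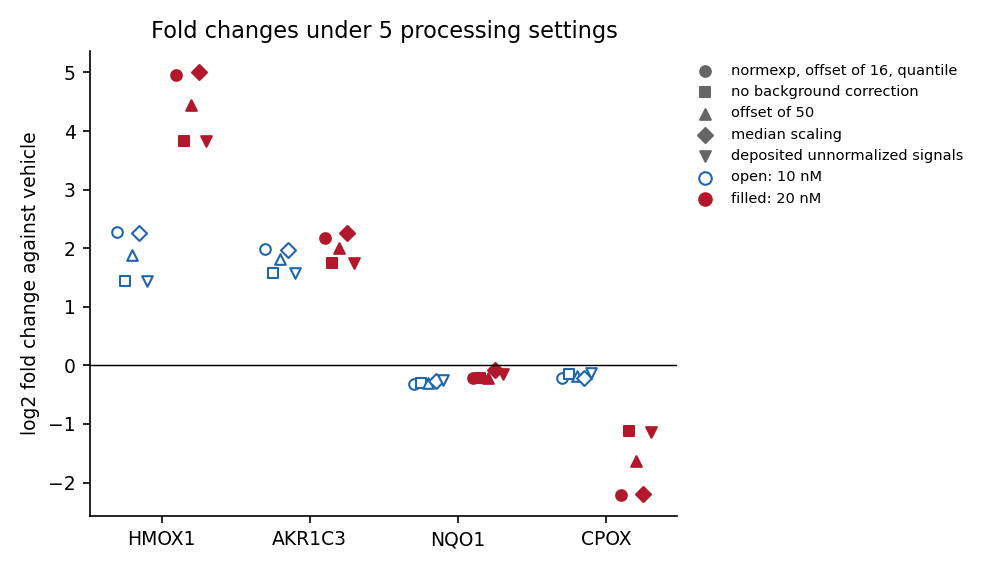
Log2 fold change of HMOX1, AKR1C3, NQO1 (brighter probe) and CPOX against vehicle, at 10 nM (open) and 20 nM (filled), under 5 processing settings drawn as different markers. HMOX1 at 20 nM runs from 3.83 to 5.01 and CPOX at 20 nM from -2.20 to -1.12, and none of the points of a gene and dose changes sign.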

How the data were processed

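Expression was measured on 3 Illumina arrays of total RNA, 1 for each treatment named in the labels. The deposited table holds signal intensities that are not normalized, per the file headers, beside a deposited p-value of detection for every signal. BeadStudio 3.0 is named in the submitters' processing notes. A background subtraction by the authors is not stated in the labels used here. The deposited second table holds 13753 probes, and its 41259 intensities all equal those of the first. It could be rebuilt, for 13752 probes, from detection at 0.05 on 2 or more arrays together with a signal at least 10% from vehicle at either dose, and 1 probe lay outside.

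Gene names came with that second table: 10952 probes had 1 symbol, updated by gene ID, 2 had several and 2799 had none, which left 36371 probes of the first table unnamed. Background was removed by limma 3.58.1 in R 4.3.3 with the normexp model, its parameters taken from the detection p-values. An offset of 16, quantile normalization across the 47323 probes and log2 followed. A gene is its brightest named probe, and counts as detected in a comparison at a p-value below 0.01 on either array. Where 1 array detected it, "at least" folds set the bright value against the higher of the dim value and the lowest detected value on the other array. These bounds hold for background-corrected values with this offset, not for ratios of the deposited signals. The steps were tested on simulated data in which only probes brighter than HMOX1 on the vehicle array were changed. Increases from so dim a level were not tested.

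The 4 genes and the pathway lists were chosen with earlier results of these data known. The text names the 4 genes, the 5 detected genes of every list farthest from vehicle at 20 nM, fixed regulators, relatives of AKR1C3 and HMOX1, and the nearest patterns. Some others, BLVRA and BLVRB among them, were named outside these rules. Alternatives were no background correction, an offset of 50, median scaling, unnormalized signals, means over probes, a detection threshold of 0.05 and, chosen after seeing the data, counts at bounds.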

Additional observations from a re-analysis of the deposited data

How the results depend on the processing

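No setting turned the direction of HMOX1, AKR1C3 or CPOX, and none moved them across 2-fold against vehicle. Between the doses CPOX was at -1.99, -1.45 with an offset of 50, and -0.98 and -0.998 without background correction and in the unnormalized signals, so there it fell just short of 2-fold. The HMOX1 log2 fold change at 10 nM was 1.44 without background correction, 1.88 with an offset of 50 and 1.45 unnormalized, and at 20 nM 3.83, 4.45 and 3.83. CPOX at 20 nM was -1.12, -1.64 and -1.13 in that order. AKR1C3 at 10 nM was 1.57 both without background correction and unnormalized. Averaging its probes moved NQO1 to 0.032 at 10 nM and 0.32 at 20 nM. Of 89 pathway genes, 13 were at least 2-fold higher and 2 lower at 10 nM, and 19 and 13 at 20 nM, beside 6.41% and 3.24%, and 14.7% and 16.6%, of all named genes. Taken at their bounds, CHAC1 and GPX2 were under 2-fold, which left 12 and 2 at 10 nM, and 18 and 12 at 20 nM. Without background correction and unnormalized, both gave 7 and 0 at 10 nM, and 14 and 6 at 20 nM, and an offset of 50 gave 10 and 0 at 10 nM. The heme synthesis count at 20 nM was 3 of 6 lower without background correction and unnormalized, with medians of -0.94, and 5 otherwise. Leaving background in draws ratios of dim probes toward 1 by construction. No paired analysis was possible because each treatment has 1 array. Signals near background, such as HMOX1 on the vehicle array and CPOX at 20 nM, limit what fold can be stated.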
